A study of Mus musculus with 19 samples.

Results

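The genes described here are 29 genes of cholesterol synthesis and sterol transport, read in RNA sequencing of embryonic mouse cortex. They were chosen by symbol, as 18 enzymes of the route from acetyl-CoA to cholesterol, 5 genes that regulate that route and 6 genes that move or store sterols. All 29 were among the 47643 gene symbols of the table, and 29 of 29 were among the 13520 genes expressed highly enough to be tested (at least 1 TPM in at least 4 libraries). TPM is a transcript level scaled by gene length and to a library total of 1000000, so levels can be compared between genes, while the sequencing depth is unknown and no counting error can be given.

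Cortex was taken from mouse embryos at E14.5 (E, embryonic day), either wildtype controls or GFAP::Cre; SmoM2 mutants, in which Cre recombinase driven by the GFAP promoter switches on SmoM2, an always active form of the Hedgehog signal transducer Smoothened. Of the 19 libraries, 6 were dorsal and 5 medial control cortex, and 4 were dorsal and 4 medial mutant cortex. For tissue, a label reads dorsal or medial, whereas the protocol speaks of medial or lateral pieces, and the labels give neither which cells had recombined nor whether embryos were pooled. Nor is it stated that each library of a group had its own embryo, so the p-values reflect only how far these libraries scatter, part of which may be technical.

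Cholesterol is built from acetyl-CoA through mevalonate, isoprenoid phosphates and squalene, which is closed into the first sterol and then trimmed in a chain of steps in the endoplasmic reticulum. SREBP transcription factors switch on these enzymes when SCAP carries them out of the endoplasmic reticulum, and INSIG proteins hold SCAP back when sterols are plentiful. NPC1 and NPC2 export cholesterol from lysosomes, ABCA1 and ABCG1 pass it out of the cell and are classic targets of the oxysterol receptors LXR, and STARD4 carries it between membranes. Sterols also bind Smoothened, and the Hedgehog receptor Patched resembles NPC1, so the pathway and Hedgehog signalling are known to touch.

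Promoter sequences were available for 23 of the 29 genes in a RefSeq table (GRCm38.p6), and 4 are shown as examples. These are Hmgcs1 and Nsdhl, enzymes of the early and late route, Insig2, a regulator that fell, and Abca1, an efflux pump that fell. Each run holds the 250 bases before the RefSeq start on the gene's strand, and capitals mark matches to the motifs TCACNCCAC (a sterol regulatory element) and CCAAT (an NF-Y box), searched on both strands, so that ATTGG is CCAAT read from the other strand.
Hmgcs1 (chr13:119690101-119690350, plus strand): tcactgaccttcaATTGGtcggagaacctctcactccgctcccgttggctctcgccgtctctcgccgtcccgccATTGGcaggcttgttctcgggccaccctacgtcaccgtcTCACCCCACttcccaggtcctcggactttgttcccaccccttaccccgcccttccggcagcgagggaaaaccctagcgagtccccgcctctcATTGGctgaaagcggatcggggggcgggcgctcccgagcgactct
Nsdhl (chrX:72918271-72918520, plus strand): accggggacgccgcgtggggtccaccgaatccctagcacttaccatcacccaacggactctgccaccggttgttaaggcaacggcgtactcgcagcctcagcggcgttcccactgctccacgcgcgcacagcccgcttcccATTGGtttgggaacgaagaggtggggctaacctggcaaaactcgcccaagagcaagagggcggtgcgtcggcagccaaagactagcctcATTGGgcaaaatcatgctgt
Insig2 (chr1:121332590-121332839, minus strand): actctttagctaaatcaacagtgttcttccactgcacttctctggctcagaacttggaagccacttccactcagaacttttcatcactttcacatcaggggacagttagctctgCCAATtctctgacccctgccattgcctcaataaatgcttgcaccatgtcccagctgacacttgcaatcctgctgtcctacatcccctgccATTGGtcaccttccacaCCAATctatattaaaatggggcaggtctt
Abca1 (chr4:53159896-53160145, minus strand): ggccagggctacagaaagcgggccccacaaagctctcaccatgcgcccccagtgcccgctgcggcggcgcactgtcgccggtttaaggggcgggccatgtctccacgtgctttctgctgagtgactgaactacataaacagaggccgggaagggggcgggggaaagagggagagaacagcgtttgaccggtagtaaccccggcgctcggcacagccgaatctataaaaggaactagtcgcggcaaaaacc

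Across windows from 250 bases before to 50 bases after the start, TCACNCCAC stood in 1 of 31 windows of these genes, that of Hmgcs1, where the match TCACCCCAC began at base -137. It stood in 1.24% of all 32851 promoters. CCAAT stood in 21 of 31 windows, belonging to 20 of 23 genes, against 37.4% of all promoters, and no CCAAT match overlapped the TCACCCCAC match of Hmgcs1. The windows of Hmgcs1 and Nsdhl held 4 CCAAT matches each and that of Insig2 above held 3, while that of Abca1 held none. The RefSeq starts of Hmgcs1 and Nsdhl were not found at a GENCODE M21 transcript start, so their windows rest on RefSeq alone. A match is a description of letters and not a bound site. A missing match does not show that an element is absent, since only these exact patterns were searched. Fdps, Fdft1, Sqle, Stard4, Abcg1 and Npc1 are the genes that the table did not list.

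The route was strongly expressed. In control dorsal cortex the 18 enzymes summed to 1871 ± 43.8 TPM (SD, n = 6), the regulators to 333 ± 10.4 TPM and the transport and storage genes to 236 ± 4.63 TPM. Hmgcs1, the synthase that makes HMG-CoA, was the most abundant at 406 ± 18.9 TPM, followed by Acat2, which joins acetyl-CoA units at the start of the route, at 316 ± 7.76 TPM. Fdft1 (squalene synthase) at 219 ± 3.59 TPM and Fdps (farnesyl diphosphate synthase) at 212 ± 7.56 TPM came next, and their libraries overlapped. At the low end stood the isomerase Ebp at 13.4 ± 0.981 TPM and Npc1 at 13.1 ± 1.28 TPM, which also overlapped. Of the enzymes that act after squalene epoxide is made, Cyp51, the lanosterol demethylase, reached 143 ± 6.14 TPM, and the other 8 had means from 13.4 TPM (Ebp) to 61.1 TPM (Sc5d).

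Gli1, a direct Hedgehog target, checked the genotype labels: it went from 0.586 ± 0.268 TPM in control dorsal to 35.0 ± 5.44 TPM in mutant dorsal libraries, and from 0.398 ± 0.135 to 37.2 ± 9.94 TPM medially. Libraries carried 17357 to 18670 genes above 0. Xist and Ddx3y, genes that tell the sexes apart, marked 3 of 6 control embryos (numbers 2, 3 and 4) as female and all 4 mutant embryos as male, so each mutant comparison was also run on male embryos alone. Libraries of the same genotype and title number are taken here as 1 embryo, which the labels do not state. Over all tested genes the median log2 change, mutant minus control, was -0.10 dorsally and -0.11 medially in the table as deposited. Quantile normalization shifted the medial value by 0.11 to -0.01. Changes are therefore also given relative to the median gene. In bulk tissue, fewer cells of a type and less RNA per cell cannot be told apart.

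In dorsal cortex, the mutants carried more Stard4 and less Npc1, Npc2, Abca1, Abcg1 and Insig2, with small shifts in 4 further genes. In all, 10 of 29 genes passed the test (limma, adjusted p below 0.05), 4 higher (Acat2, Fdps, Srebf1 and Stard4) and 6 lower (Fdft1, Insig2, Abca1, Abcg1, Npc1 and Npc2). Of all tested genes, 9.93% passed as higher and 27.6% as lower (37.5% in either direction), so these counts lie near the background, and the median change of the 29 genes was -0.02. The groups did not overlap for 3 of the higher genes and 5 of the lower genes, against 7.25% and 17.6% of all genes. Without mutant dorsal library 3, 2 passed as higher and 3 as lower, and without control dorsal library 3 or 4, 2 passed as higher. With male embryos alone 1 passed as higher (Stard4) and 4 as lower (Insig2, Npc1, Npc2 and Soat1).

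In medial cortex 14 of 29 passed, 7 higher (Acat2, Idi1, Fdps, Sqle, Nsdhl, Srebf1 and Stard4) and 7 lower (Mvd, Tm7sf2, Insig2, Abca1, Abcg1, Npc1 and Npc2), against 9.44% higher and 30.2% lower among all genes (39.6% in either direction). Their median change was 0.03, and the groups did not overlap for 6 higher and 5 lower genes, against 7.63% and 22.7% of all genes. With male embryos alone 4 passed as higher (Acat2, Idi1, Fdps and Stard4) and 5 as lower (Tm7sf2, Insig2, Abcg1, Npc1 and Npc2).

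**Figure D1:**
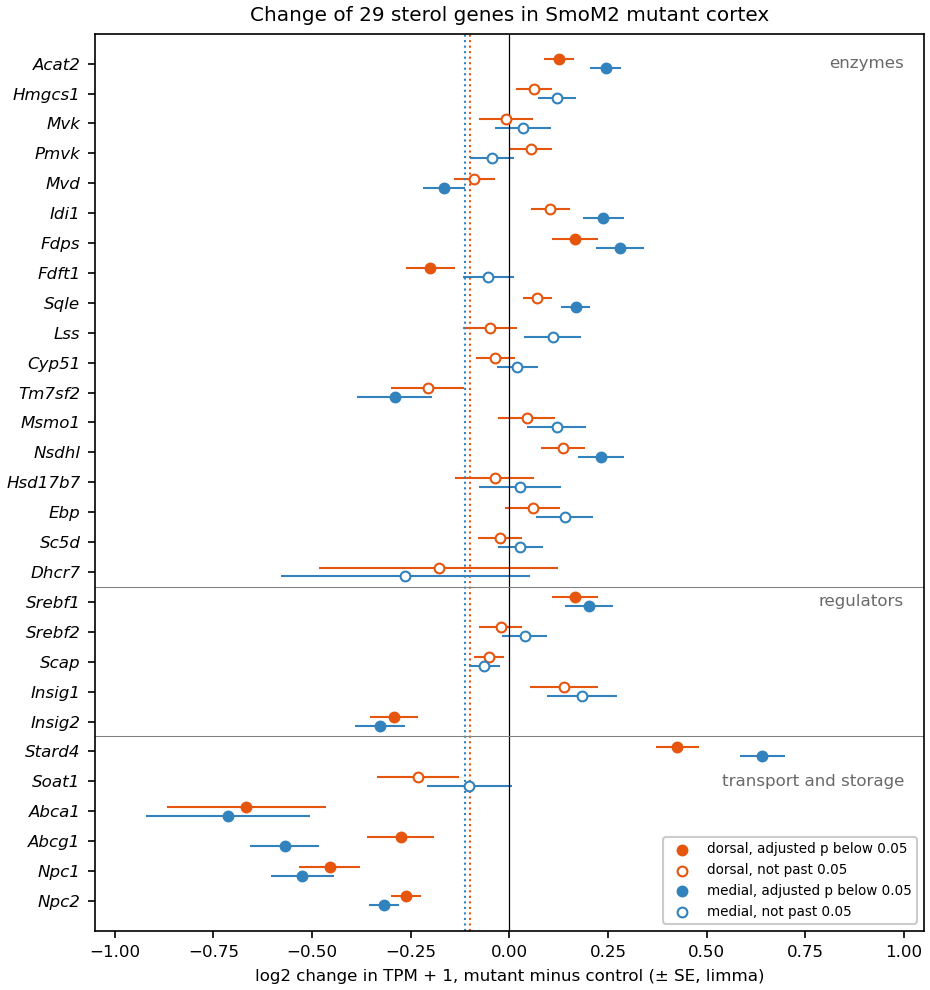
Change of each of the 29 genes in the mutants (horizontal axis, log2 change in TPM + 1 ± SE from limma) dorsally and medially, ordered by role, with dotted lines at the median change of all tested genes (-0.10 dorsal, -0.11 medial). Filled points passed an adjusted p of 0.05; 4 of 6 transport genes and the regulator Insig2 lie left of the dotted lines with filled points, 15 of 18 enzymes lie right of them in each region, and Stard4 lies farthest right.

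The early enzymes changed little and unevenly. Acat2 ran from 308 to 330.0 TPM, with a median of 315 TPM, in the control dorsal libraries, and stood at 339, 345, 346 and 349 TPM in the mutant dorsal libraries. Medially the controls stood at 269, 291, 274, 278 and 269 TPM and the mutants at 319, 348, 299.8 and 344 TPM. Every mutant library was above every control library of its region. Acat2 (chr17:12942890-12960747) rose by a log2 change of 0.13 ± 0.04 dorsally (adjusted p = 0.0146) and 0.24 ± 0.04 medially (adjusted p = 0.000132). With male embryos alone the dorsal change did not pass (adjusted p = 0.0823, 3 control against 4 mutant libraries).

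Fdps makes farnesyl diphosphate, the last intermediate shared by sterols and protein prenylation. It ran from 206 to 227 TPM, with a median of 209.6 TPM, in control dorsal libraries and stood at 244, 235, 239 and 234 TPM in mutant dorsal libraries, with no overlap. In the medial groups it stood at 171, 201, 179.9, 199 and 181 TPM in controls and at 234, 240.4, 192 and 241 TPM in mutants, where mutant library 3 fell among the controls. Fdps (chr3:89093588-89101959) rose by 0.17 ± 0.06 dorsally (adjusted p = 0.0310) and 0.28 ± 0.06 medially (adjusted p = 0.00133). Its exons overlap those of Gm43738, a protein-coding gene on the same strand. The dorsal call did not hold without control dorsal library 1, 3 or 4 (adjusted p = 0.0537, 0.0506 and 0.0556) or mutant dorsal library 1 or 3 (0.0799 and 0.0690), with a term for sex (0.0593), with male embryos alone (0.0850), without the filter on low values (0.0546) or with the embryo as a random block (0.0684).

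Fdft1, which commits farnesyl diphosphate to sterols, went the other way dorsally. It ran from 216 to 224 TPM, with a median of 217 TPM, in control dorsal libraries and stood at 194, 201, 168 and 199 TPM in mutant dorsal libraries, all below the controls. Medial controls stood at 146, 154, 167, 174 and 171 TPM and medial mutants at 157, 173, 136 and 160.5 TPM, which overlapped. Fdft1 (chr14:63145150-63179578) fell by 0.20 ± 0.06 on the log2 scale dorsally (adjusted p = 0.0173), and its medial change was -0.05 ± 0.07 (adjusted p = 0.549). The dorsal call was lost without mutant dorsal library 3 (adjusted p = 0.0914), with male embryos alone (0.0888) and after median-ratio rescaling (0.220). An exon of Fdft1 overlaps one of Ctsb on the opposite strand.

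Further enzymes passed in medial cortex, although none of the 29 genes passed the test of the difference between regions given below. Idi1, the isopentenyl diphosphate isomerase, went from 110 ± 7.60 TPM (SD, n = 5) to 129 ± 4.30 TPM (SD, n = 4) medially and rose by 0.24 ± 0.05 (adjusted p = 0.00138). Sqle (squalene epoxidase, the first oxygen-dependent step) went from 75.2 ± 2.67 to 84.5 ± 1.18 TPM and rose by 0.17 ± 0.04 (adjusted p = 0.00160), and Nsdhl, an X-linked sterol dehydrogenase, went from 33.9 ± 0.928 to 40.1 ± 3.05 TPM and rose by 0.23 ± 0.06 (adjusted p = 0.00419). Control and mutant medial libraries did not overlap for any of these 3 genes. Dorsally these 3 genes did not pass as deposited but did so as higher after either rescaling (adjusted p from 0.00225 to 0.0147), and Nsdhl also without control dorsal 1 or 5, mutant dorsal 4 or mutant medial 3 (0.0313, 0.0447, 0.0446 and 0.0416). The medial Sqle and Nsdhl calls were lost with male embryos alone (adjusted p = 0.0634 and 0.0901, 2 control against 4 mutant libraries).

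Mvd and Tm7sf2 were the enzymes that fell medially. Mvd, the mevalonate diphosphate decarboxylase, went from 51.4 ± 2.02 to 45.7 ± 2.90 TPM without overlap and fell by 0.17 ± 0.05 (adjusted p = 0.0191). Tm7sf2, a sterol reductase, went from 18.1 ± 1.69 to 14.6 ± 1.60 TPM with overlapping libraries and fell by 0.29 ± 0.10 (adjusted p = 0.0209). Neither call survived rescaling by median ratios (adjusted p = 0.395 and 0.108) or quantile normalization (0.217 and 0.193). The Mvd call was also lost without mutant medial library 2 or 3 (0.0600 and 0.0748) and with male embryos alone (0.164), and that of Tm7sf2 without control medial library 5 (0.0540) or mutant medial library 3 (0.0790). Dorsally Tm7sf2 passed as lower without mutant dorsal library 2 (0.0229). It shares exon sequence with Vps51 on the same strand.

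As a group, 2 of 18 enzymes rose and 1 fell dorsally, and 5 rose and 2 fell medially, against 9.93% and 27.6% of all tested genes dorsally and 9.44% and 30.2% medially. The split depended on the scaling: 6 rose and 0 fell dorsally when libraries were rescaled by median ratios and 5 and 1 under quantile normalization, and medially these counts were 9 and 0, and 7 and 0. Over all tested genes, those called dorsally were 1343 higher and 3727 lower as deposited, 2079 and 1998 once rescaled by median ratios, and 1959 and 2173 with quantile normalization. Medially they were 1276 and 4081, then 2138 and 2341, and 2164 and 2275. The median change of the enzymes was 0.02 dorsally and 0.07 medially, which is 0.12 and 0.18 above the median gene. With male embryos alone no enzyme passed dorsally, and 3 rose and 1 fell medially.

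The summed enzyme level was 1920 ± 34.5 TPM (SD, n = 4) in mutant dorsal libraries. Medially it was 1690 ± 56.4 TPM (SD, n = 5) in controls and 1841 ± 117 TPM (SD, n = 4) in mutants. Mutant medial library 3 set much of that last spread, at 1676 TPM, and was the lowest of its group for 14 of 18 enzymes, whereas mutant medial library 2 was the highest for 12. This library was singled out by these same low values, and Insig1 was also lowest there, at 110 TPM. Leaving the library out therefore raises the medial changes of those 14 enzymes and of Insig1 by construction. Without mutant medial library 3, 7 enzymes rose and 0 fell medially, and Insig1 passed as higher (adjusted p = 0.00225). These counts are thus no separate support for a rise.

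**Figure D2:**
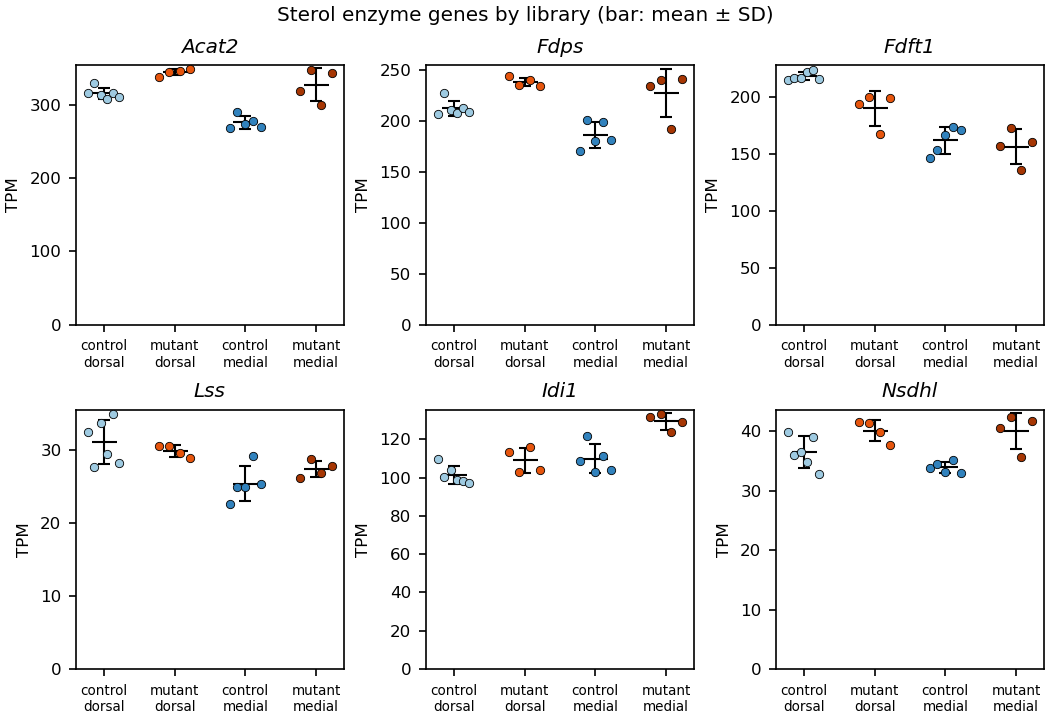
TPM (vertical axes, from 0) of 6 enzyme genes in each library of the 4 groups, with bars at the mean ± SD. Acat2, Idi1 and Nsdhl are higher in all medial mutants than in all medial controls, Fdps is so in 3 of 4 mutants, and Fdft1 is lower in medial than in dorsal controls.

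Among the remaining enzymes neither comparison passed, and their log2 changes dorsally and medially are given in that order. They were 0.06 ± 0.05 and 0.12 ± 0.05 for Hmgcs1, which passed medially after median-ratio rescaling (adjusted p = 0.00289), with the embryo as a random block (0.0405), and without control dorsal 5 or 6, control medial 3, mutant dorsal 3 or mutant medial 3 (0.0492, 0.0454, 0.0318, 0.0482 and 0.00872). The mevalonate kinases Mvk and Pmvk showed -0.01 and 0.04, and 0.05 and -0.05. Lss, which closes squalene epoxide into lanosterol, showed -0.05 and 0.11, and Cyp51 showed -0.04 and 0.02. The late enzymes Msmo1, Hsd17b7, Ebp and Sc5d lay between -0.04 and 0.06 dorsally and between 0.03 and 0.14 medially. Rescaling by median ratios made Hmgcs1 pass dorsally (adjusted p = 0.0269) and Lss (0.0179), Ebp (0.0213) and Msmo1 (0.0483) pass medially as higher, and quantile normalization did so medially for Lss (0.00959) and Ebp (0.00838). Msmo1 also passed medially without mutant medial library 3 (0.0460).

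Dhcr7, the reductase whose loss causes Smith-Lemli-Opitz syndrome, is described in full because of its spread, a choice made after its values were seen. Dorsal controls 1 to 6 stood at 12.3, 25.1, 26.4, 27.3, 11.4 and 18.0 TPM, and dorsal mutants 1 to 4 at 20.3, 18.1, 19.9 and 10.4 TPM. Medial controls 2 to 6 stood at 28.5, 29.3, 27.9, 10.3 and 21.1 TPM, and medial mutants 1 to 4 at 22.5, 19.7, 20.1 and 12.1 TPM. The regions of an embryo had like levels and the embryos differed: controls 1 and 5 and mutant 4 were low in every library they had, and controls 2, 3 and 4, the female embryos, were the highest in both regions. The groups overlapped, and the mutant changes of -0.18 ± 0.30 dorsally and -0.26 ± 0.31 medially did not pass (adjusted p = 0.683 and 0.539). With a term for sex, and with male embryos alone, the changes turned to 0.27 dorsally and 0.28 medially and again did not pass. The part of sex in the level itself was not tested.

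**Figure D3:**
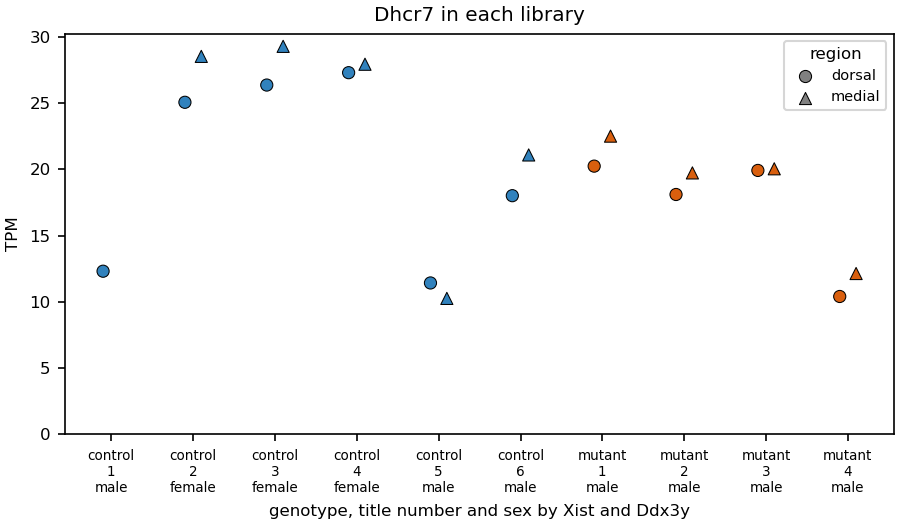
Dhcr7 level (vertical axis, TPM from 0) in each library, by embryo (genotype, title number and sex read from Xist and Ddx3y), with circles for dorsal and triangles for medial cortex. Control 5 and mutant 4 lie between 10.3 and 12.1 TPM in both regions, while controls 2, 3 and 4 lie between 25.1 and 29.3 TPM.

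Of the 5 regulators, Srebf1 rose and Insig2 fell in both regions, and the other 3 did not pass in either. Insig2, which retains SCAP in the endoplasmic reticulum, ran from 19.7 to 22.9 TPM, with a median of 20.6 TPM, in control dorsal libraries. It stood at 14.9, 18.3, 17.0 and 17.5 TPM in mutant dorsal libraries. Medially the values were 21.2, 23.6, 21.3, 20.0 and 22.8 TPM in controls and 16.8, 18.2, 16.8 and 16.8 TPM in mutants, so the groups were apart in both regions. Insig2 (chr1:121304353-121332589) fell by 0.29 ± 0.06 dorsally (adjusted p = 0.00124) and 0.33 ± 0.06 medially (adjusted p = 0.000606), and both calls held under every alternative that was run.

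Srebf1 encodes SREBP-1, the form best known for fatty acid synthesis. It went from 53.8 ± 4.46 to 60.5 ± 3.40 TPM dorsally and from 56.8 ± 2.87 to 65.5 ± 4.04 TPM medially, where the libraries did not overlap. It rose by 0.17 ± 0.06 (adjusted p = 0.0328) and 0.20 ± 0.06 (adjusted p = 0.0134). Its exons overlap those of Rai1 on the opposite strand and of the microRNA gene Mir6922 on the same strand. A term for sex ended both calls (adjusted p = 0.164 and 0.111), keeping low genes in ended the dorsal one (0.0587), and male embryos alone ended both (0.321 and 0.239). The dorsal call was also lost without control dorsal library 2, 3, 4 or 6 (0.0574, 0.0733, 0.0531 and 0.0600) or mutant dorsal library 2 or 3 (0.0579 and 0.128), and the medial call without mutant medial library 2 (0.0546).

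Srebf2, which encodes SREBP-2, the main activator of the cholesterol route, changed by -0.02 dorsally (adjusted p = 0.781) and 0.04 medially (adjusted p = 0.619), from 72.6 ± 5.55 to 71.3 ± 2.36 TPM and from 68.8 ± 3.36 to 70.7 ± 4.06 TPM. Rescaled by median ratios, its medial change was 0.14 and passed (adjusted p = 0.0376). Scap changed by -0.05 and -0.06 (adjusted p = 0.304 and 0.212). Insig1, itself a classic SREBP target, had values of 0.14 ± 0.09 and 0.18 ± 0.09 (adjusted p = 0.226 and 0.114), and it passed medially after median-ratio rescaling (0.0297) and quantile normalization (0.0477). The 2 INSIG genes therefore had changes of opposite sign, of which the increase of Insig1 did not pass as deposited.

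The transport and storage genes held the largest fall of the 29 genes, that of Abca1, and the largest rise, that of Stard4, in both regions. Stard4, which carries cholesterol between membranes and is an SREBP target, ran from 15.7 to 17.8 TPM, with a median of 15.8 TPM, in control dorsal libraries and stood at 23.8, 21.7, 22.8 and 20.5 TPM in mutant dorsal libraries. Medial controls stood at 15.2, 17.0, 16.6, 15.7 and 16.3 TPM and medial mutants at 23.6, 27.2, 25.8 and 26.6 TPM. The lowest mutant library lay above the highest control library in both regions. Stard4 (chr18:33199355-33213862) rose by 0.43 ± 0.06 dorsally (1.34-fold on the TPM + 1 scale, adjusted p = 1.17e-05) and 0.64 ± 0.06 medially (1.56-fold, adjusted p = 2.67e-07), which is 0.53 and 0.75 above the median gene. Both calls held under every alternative that was run.

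Npc1 and Npc2, which hand cholesterol on in the lysosome, both fell in both regions. Npc1 ran from 11.3 to 14.6 TPM, with a median of 13.3 TPM, in control dorsal libraries and stood at 8.34, 9.47, 9.17 and 10.1 TPM in mutant dorsal libraries. Medially it stood at 12.7, 13.3, 12.4, 12.7 and 13.4 TPM in controls and at 8.41, 7.47, 9.82 and 9.14 TPM in mutants, all below the controls. Npc1 (chr18:12189692-12236400) fell by 0.46 ± 0.08 dorsally (adjusted p = 0.000207) and 0.52 ± 0.08 medially (adjusted p = 8.07e-05), relative changes of -0.36 and -0.41 against the median gene. Its exons overlap those of Rmc1 on the opposite strand, and whether the counting used strand is not given in the sources used here. Exons of Hmgcs1, Idi1, Lss, Cyp51 and Scap also overlap those of genes on the opposite strand.

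Npc2, the soluble lysosomal partner, was far more abundant. It ran from 149 to 162 TPM, with a median of 157 TPM, in control dorsal libraries and stood at 133, 132, 127 and 127 TPM in mutant dorsal libraries. Medial controls stood at 171, 170.1, 164, 158 and 175 TPM and medial mutants at 139.8, 139 (library 2), 128 and 129.6 TPM. No mutant library reached the lowest control of its region, and Npc2 (chr12:84754562-84773152) fell by 0.26 ± 0.04 dorsally (adjusted p = 3.30e-05) and 0.32 ± 0.04 medially (adjusted p = 7.40e-06). The calls of Npc1 and Npc2 held in both regions under every alternative that was run.

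The efflux pumps Abca1 and Abcg1 fell as well, with wider spread. Abca1 ran from 11.9 to 16.8 TPM, with a median of 14.6 TPM, in control dorsal libraries and stood at 11.2, 9.79, 6.27 and 8.98 TPM in mutant dorsal libraries, without overlap. Medial controls stood at 18.9, 11.7, 10.8, 7.37 and 15.8 TPM and medial mutants at 8.84, 6.42, 8.61 and 5.22 TPM, where control library 5 lay among the mutants. Abca1 (chr4:53030787-53159895) fell by 0.67 ± 0.20 dorsally (adjusted p = 0.0140) and 0.71 ± 0.21 medially (adjusted p = 0.0111). The calls were lost with a term for sex (adjusted p = 0.0596 and 0.0645) and with male embryos alone (0.115 and 0.174), and the dorsal call also without mutant dorsal library 3 (0.0709) and after quantile normalization (0.0535).

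Abcg1, which hands cholesterol to lipoprotein particles, ran from 14.3 to 16.6 TPM, with a median of 16.3 TPM, in control dorsal libraries. The mutant dorsal libraries stood at 11.7, 14.6, 10.4 and 15.5 TPM, so 2 of 4 lay within the control range. Medially the controls stood at 16.3, 15.5, 15.0, 14.3 and 14.6 TPM and the mutants at 9.06, 9.62, 10.4 and 10.4 TPM, well apart. Abcg1 (chr17:31057675-31117988) fell by 0.28 ± 0.08 dorsally (adjusted p = 0.0160) and by 0.57 ± 0.09 medially (adjusted p = 8.32e-05). The medial call held under every alternative that was run, whereas the dorsal one was lost after either rescaling (adjusted p = 0.0860 and 0.138), with a term for sex (0.0563), with male embryos alone (0.143), and without mutant dorsal library 1 or 3 (0.0653 and 0.0880).

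Soat1, which stores cholesterol as esters, went from 20.3 ± 2.99 to 17.1 ± 1.83 TPM dorsally and from 19.8 ± 2.38 to 18.4 ± 1.64 TPM medially and passed in neither region as deposited (adjusted p = 0.0856 and 0.482). It did pass dorsally with a term for sex (0.00994), with male embryos alone (0.0481) and without control dorsal library 2 (0.0304). Of the 6 transport and storage genes, then, 1 rose and 4 fell in each region (all tested genes, 9.93% and 27.6% dorsally and 9.44% and 30.2% medially), with a median change of -0.27 dorsally and -0.42 medially. Rescaled by median ratios, 1 rose and 3 fell dorsally, with quantile normalization 1 and 2, and medially both gave 1 and 4. Summed, they went from 236 ± 4.63 to 200.5 ± 4.85 TPM dorsally and from 245 ± 9.87 to 204 ± 3.20 TPM medially, with Npc2 making up most of the sum.

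**Figure D4:**
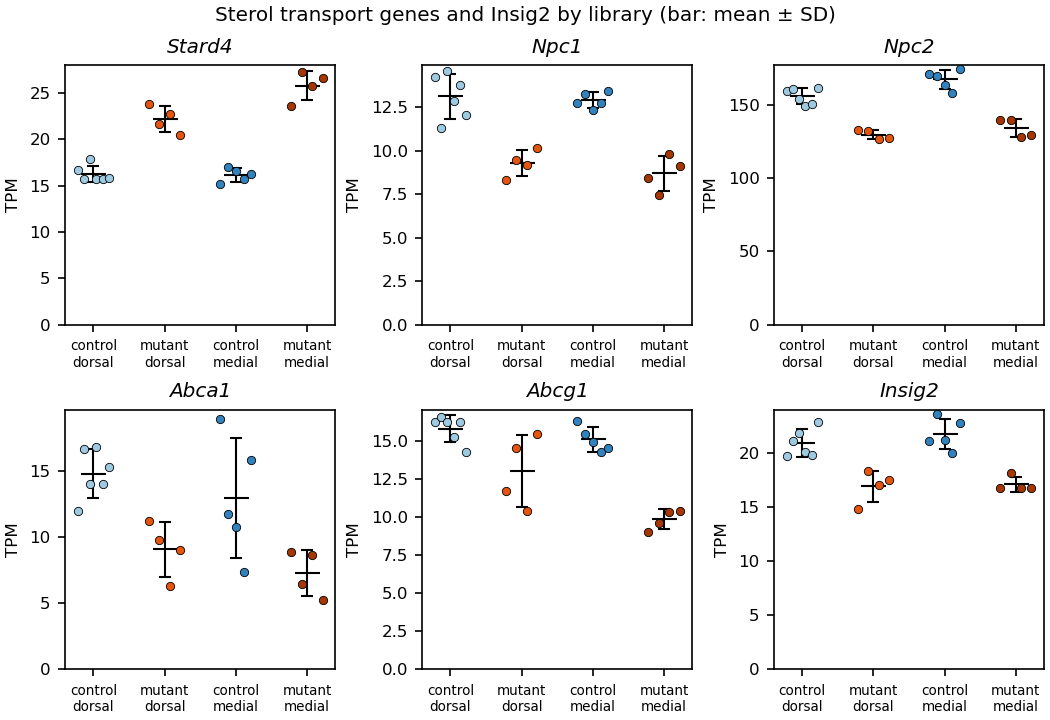
TPM (vertical axes, from 0) of 5 transport genes and Insig2 in each library of the 4 groups, with bars at the mean ± SD. Stard4 is higher and Npc1, Npc2 and Insig2 lower in all mutants than in all controls of either region, while Abca1 overlaps medially and Abcg1 dorsally.

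Marker genes of other cell types were read in the same comparisons, and the counts are of genes that passed. Of all tested genes, 9.93% passed as higher and 27.6% as lower dorsally, and 9.44% and 30.2% medially. Of 10 neuron markers, 8 fell in each region, and their summed level ran from 5434 to 6149 TPM in dorsal controls against 3475 to 5119 TPM in dorsal mutants, and from 3669 to 4735 against 2501 to 3209 TPM medially. Of 9 radial glia markers, 5 rose and 2 fell dorsally and 3 rose and 1 fell medially. Their summed level overlapped dorsally, from 2479 to 2833 TPM in controls and 2555 to 2755 TPM in mutants. It also overlapped medially, from 3106 to 3895 TPM in controls and 3012 to 3351 TPM in mutants. Of 6 microglia markers, 4 fell dorsally (summed 41.1 to 56.5 TPM in controls, 26.2 to 35.6 TPM in mutants) and 0 medially (34.5 to 56.2 and 28.4 to 64.3 TPM), and 2 of 4 pericyte markers fell dorsally and 1 medially. Interneuron markers fell for 0 of 6 genes dorsally and 4 of 6 medially, with median changes of -0.39 and -0.72. Their summed level was 38.9 to 50.8 TPM in dorsal controls and 16.6 to 43.7 TPM in dorsal mutants. Medially it was 12.9 to 28.7 and 1.74 to 15.4 TPM. For the difference of the mutant effect between regions 0 of these genes passed. Of 5 intermediate progenitor markers 2 rose and 1 fell dorsally and 1 rose and 1 fell medially, Olig2 rose in both regions among 4 oligodendrocyte precursor markers tested, and 1 of 6 endothelial and 1 of 6 meningeal markers fell dorsally and 0 medially. No erythroid or choroid plexus and hem marker passed, and the latter summed to between 1.58 and 956 TPM in medial controls and between 2.27 and 165 TPM in medial mutants. Among all markers checked, Sox10 (at most 0.433 TPM) and Kl (at most 0.0474 TPM) alone stayed under 1 TPM in every library. The pericyte count medially and the endothelial and meningeal counts dorsally lie near or below the share of all tested genes that fell. Mutant medial library 3, the lowest of its group for 14 of 18 enzymes, had the highest summed microglia, meningeal (78.1 TPM) and choroid plexus and hem markers. The same library was also highest for summed intermediate progenitor (1227 TPM), endothelial (85.9 TPM) and oligodendrocyte precursor (35.35 TPM) markers. It had the lowest summed neuron, interneuron and erythroid (2421 TPM) markers of its group, and was at neither end for radial glia and pericyte markers. The part of these cell types in the sterol gene changes was not tested.

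The effect of the genotype was then compared between regions in a single test. None of the 29 genes passed for the difference of the mutant effect, medial minus dorsal (limma, lowest adjusted p = 1.00), and of all tested genes 0.0074% passed as higher and 0% as lower. At an unadjusted p below 0.05, 3 of the 29 and 451 of all tested genes stood out. The 3 were Stard4 with a difference of 0.22 ± 0.08, Abcg1 with -0.29 ± 0.12 and Acat2 with 0.12 ± 0.06. The differences of the 29 genes ran from -0.29 to 0.22, and with the embryo as a random block 49 of all tested genes passed in place of 1, still with none of the 29.

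Within controls, part of the enzyme genes stood lower medially. Of the 29 genes, 7 were lower in medial than in dorsal cortex, all of them enzymes (Acat2, Hmgcs1, Pmvk, Fdps, Fdft1, Sqle and Lss), and 1, Npc2, was higher. Over all tested genes 14.9% passed as lower and 17.6% as higher (32.4% in either direction). Libraries did not overlap for Acat2, Fdps and Fdft1, 3 lower genes, against 9.39% of all genes, and for 0 higher genes, against 11.1%. The other 11 enzymes did not pass, among them Idi1, Dhcr7, Ebp and Mvd with positive changes of 0.11, 0.20, 0.08 and 0.02. The median change of the 18 enzymes was -0.10, against 0.01 for all tested genes. Of the neuron markers, 8 of 10 were lower medially in controls, and of the radial glia markers 7 of 9 were higher. Interneuron markers were lower for 5 of 6 genes, and 4 of 5 intermediate progenitor markers were higher and 1 lower. Of the choroid plexus and hem markers tested, 3 of 5 were higher. Of the pericyte, oligodendrocyte precursor and erythroid markers, 1 each was lower, and no endothelial, microglia or meningeal marker passed. The part of these cell types in the regional differences was not tested.

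Fdft1 had the largest regional change, at 219 ± 3.59 TPM dorsally and 162 ± 11.8 TPM medially in controls. It was lower by a log2 change of -0.43 ± 0.06 (adjusted p = 7.62e-05), with every medial control below every dorsal one. Lss (chr10:76531588-76557138) ran from 27.8 to 35.0 TPM, with a median of 31.0 TPM, in dorsal controls and stood at 22.6, 25.0, 24.9, 29.2 and 25.4 TPM in medial controls, where control library 5 overlapped. Its change was -0.28 ± 0.06 (adjusted p = 0.00300). In the mutants Lss stood at 30.6, 30.6, 29.7 and 28.9 TPM dorsally and at 26.3, 28.8, 26.9 and 27.8 TPM medially.

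Acat2 and Fdps were each lower medially in controls by log2 changes of -0.19 ± 0.04 and -0.19 ± 0.05 (adjusted p = 0.000651 and 0.0122), from the library values given above. The calls of Hmgcs1 (adjusted p = 0.0370), Pmvk (0.0245), Sqle (0.0368) and Npc2 (0.0292) were each lost in some fits that left out 1 library. Hmgcs1 was lost without control dorsal 1, 3 or 5 or control medial 2, 4 or 6 (adjusted p from 0.0632 to 0.0893), and Pmvk without control dorsal 2, 4 or 6 or control medial 2, 3 or 5 (0.0521 to 0.0647). Sqle was lost without control dorsal 1, 3, 4 or 5 or control medial 2, 4 or 6 (0.0526 to 0.0940), and Npc2 without control dorsal 3, 4 or 5 or control medial 2, 3 or 6 (0.0513 to 0.0777). Median-ratio rescaling ended the calls of Hmgcs1 (0.0502), Pmvk (0.0545) and Npc2 (0.0696). It left 5 enzymes lower, against 8 with quantile normalization. Hmgcs1 and Sqle were also lost without the filter (0.0583 and 0.0618) and in limma without trend and robust settings (0.0523 and 0.0536). With male embryos alone, 3 dorsal against 2 medial libraries, none of the 8 calls remained (adjusted p = 0.139 for Fdft1, 0.165 for Acat2, 0.281 for Lss and 0.456 for Fdps), and 10 of all tested genes passed. With the embryo as a random block, which links each medial library to the dorsal library of the same title number, 2 of the 29 were higher and 10 lower. The additional genes were Idi1 (higher, adjusted p = 0.00759), Tm7sf2 (lower, 0.00549), Sc5d (lower, 0.0121) and Cyp51 (lower, 0.0457), and 6614 of all tested genes passed in place of 4387.

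Within mutants, 5 of 29 genes differed between regions, 2 higher medially (Idi1 and Stard4) and 3 lower (Pmvk, Fdft1 and Abcg1), against 8.03% and 10.8% of all tested genes. Libraries did not overlap for 1 higher gene, Idi1, and 2 lower genes, Pmvk and Lss, against 7.11% and 8.05% of all genes. Lss itself did not pass (limma adjusted p = 0.279), and the libraries overlapped for Fdft1, Abcg1 and Stard4. Fdft1 was lower medially in mutants too, at -0.28 ± 0.07 (adjusted p = 0.00915), as was Pmvk at -0.25 ± 0.06 (adjusted p = 0.00713). Idi1 was higher by 0.25 ± 0.05 (adjusted p = 0.00574), at 109 ± 6.45 TPM dorsally and 129 ± 4.30 TPM medially. These 3 calls held under every alternative that was run.

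Stard4 was higher medially in mutants by 0.21 ± 0.06 (adjusted p = 0.0221) and Abcg1 lower at -0.36 ± 0.09 (adjusted p = 0.0128). The Stard4 call was lost without mutant dorsal library 2 or 4 (adjusted p = 0.0723 and 0.0892) or mutant medial library 2, 3 or 4 (0.0590, 0.0584 and 0.0515), and with male embryos alone (0.0527, a fit with the same mutant libraries and fewer controls). The Abcg1 call was lost without mutant dorsal library 2 or 4 (0.0617 and 0.0584) and with male embryos alone (0.0545). With the embryo as a random block Ebp passed as higher (0.0209) and Tm7sf2 as lower (0.00212), and 5283 of all tested genes passed in place of 2545.

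Further lists of the wider lipid pathway, fixed by symbol, were followed beside these genes. Their counts stand against 9.93% higher and 27.6% lower among all tested genes dorsally and 9.44% and 30.2% medially. Of 17 genes of intracellular sterol transfer, 1 rose and 9 fell dorsally and 1 rose and 11 fell medially, with median changes of -0.17 and -0.18. Stard3, which tethers late endosomes to the endoplasmic reticulum, fell from 46.4 ± 0.944 to 28.3 ± 1.40 TPM dorsally, by 0.70 ± 0.07 on the log2 scale (adjusted p = 4.02e-07), and by 0.68 ± 0.07 medially (adjusted p = 1.24e-06). Osbpl5, an oxysterol-binding protein relative, fell by 0.56 ± 0.07 and 0.68 ± 0.07 (adjusted p = 4.24e-06 and 1.03e-06). Tmem97, the sigma-2 receptor that binds NPC1, was the gene that rose, by 0.42 ± 0.08 and 0.38 ± 0.08 (adjusted p = 0.000493 and 0.00150).

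Of 13 genes of LXR signalling, oxysterol metabolism and lipoprotein uptake, 11 were tested (Ch25h and Cyp27a1 were too low), and 2 rose and 5 fell in each region, with median changes of -0.31 in both. Cyp7b1, which hydroxylates oxysterols, fell by 0.74 ± 0.14 dorsally (adjusted p = 0.000612) and 0.86 ± 0.15 medially (adjusted p = 0.000211). Lrp8, a Reelin and lipoprotein receptor, rose by 0.32 ± 0.07 and 0.40 ± 0.07 (adjusted p = 0.00117 and 0.000225), and the lipoprotein receptor Scarb1 by 0.34 ± 0.08 and 0.46 ± 0.08 (adjusted p = 0.00245 and 0.000272). The calls of Stard3, Osbpl5, Tmem97, Cyp7b1, Lrp8 and Scarb1 held in both regions under every alternative that was run.

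Of 11 fatty acid synthesis genes, which SREBP-1 is known to drive, 3 rose and 3 fell dorsally and 2 rose and 1 fell medially. Scd1, a fatty acid desaturase, went from 6.08 ± 0.898 to 14.0 ± 1.97 TPM dorsally and from 4.18 ± 0.946 to 9.88 ± 1.96 TPM medially, and rose by 1.08 ± 0.14 and 1.07 ± 0.14 (adjusted p = 8.29e-06 and 1.67e-05). Acly, which supplies cytosolic acetyl-CoA, fell by 0.22 ± 0.05 and 0.16 ± 0.05 (adjusted p = 0.00230 and 0.0217). Both Acly calls were lost after median-ratio rescaling (adjusted p = 0.0635 and 0.448), and the medial one also without control medial library 5 or mutant medial library 1 or 2 (0.0537, 0.0786 and 0.0538) and with male embryos alone (0.0619). Of 6 genes of SREBP processing and turnover, 0 rose in either region, and 2 fell dorsally and 3 medially, where 27.6% and 30.2% of all tested genes fell, so the dorsal count lies near the background. Of 11 isoprenoid branch and prenylation genes, 1 rose and 1 fell dorsally and 0 rose and 2 fell medially. Rabggta, a subunit of the Rab prenylation enzyme, was the gene that fell in both regions, by 0.24 ± 0.06 in each (adjusted p = 0.00364 and 0.00535), calls that were lost after median-ratio rescaling (0.0560 and 0.101) and quantile normalization (0.0626 and 0.134), and medially with male embryos alone (0.0679).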

How the data were processed

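RNA was sequenced from dissected cortex, extracted with the RNeasy Micro Kit and prepared for sequencing with a stranded total RNA kit (TruSeq), per the labels' protocols. The authors deposited 1 table of TPM values, with 1 column per library and each column summing to 1000000. The genome build is mm10, per the submitters' processing notes. Aligner, quantifier, annotation release and strand setting: not given in the sources used here.

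Libraries were grouped by their titles. The tests kept genes that reached 1 TPM in 4 or more libraries and used log2(TPM + 1), with a pseudocount of 1. They were run in R 4.3.3 with limma 3.58.1 and statmod 1.5.0, using 1 mean per group over all 19 libraries and empirical Bayes moderation with trend and robust settings. P-values were adjusted by Benjamini and Hochberg over the 13520 genes of each comparison, with a threshold of 0.05. Errors are SD for TPM and SE for log2 changes, and a fold change on the TPM + 1 scale understates the change of low genes. Libraries of the same genotype and title number deviated together across regions in all 9 pairs (r from 0.549 to 0.795). A number was therefore taken as an embryo within a genotype, a pairing read from the data and not stated in the labels. Pairs of unlike number within a genotype were not compared. Across genotypes r ran from -0.436 to 0.138 in 7 pairs, and the number pairs nothing there. The embryo block had a consensus correlation of 0.515.

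The members and lists were chosen with earlier results of these data known. Library values (lowest, median and highest for the 6 control dorsal libraries, every value in the other groups) are given for the 6 called genes with the largest change in each mutant comparison and the 4 with the largest regional change in controls, and up to 3 genes of each further list are named. Alternatives were another pseudocount (0.1), no filter, median-ratio and quantile rescaling, limma without trend and robust settings, a sex term, male embryos alone, blocks by embryo or title number, and leaving out each library. Median-ratio factors divide each library by its typical ratio to the mean library. Scripts were tested on simulated data. Gene positions are from GENCODE M21 (GRCm38, the same assembly as mm10). Python 3.11.15 and matplotlib 3.10.9 were used. Some genes of the route are not reported here.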

Additional observations from a re-analysis of the deposited data

Results flagged for a closer look

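Each group of 4 to 6 libraries was checked for 1 library far from the others (by Dixon's ratio) for each of the 29 genes, and 4 of 116 groups were flagged, where chance flags about 1 in 20. Fdps was 227 TPM in control dorsal library 2, and the next library stood at 212 TPM. Fdps was 192 TPM in mutant medial library 3, the lowest of its group, and the next stood at 234 TPM. Sc5d was 63.5 TPM in mutant medial library 2, against 55.7 TPM in the next. Insig2 was 18.2 TPM in mutant medial library 2, against 16.8 TPM in the next, and stayed below every medial control there.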

How the results depend on the processing

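With male embryos alone, all called genes went from 5070 to 2876 dorsally, from 5357 to 3086 medially, from 4387 to 10 between regions in controls and from 2545 to 1614 in mutants, and sterol genes higher went from 4 to 1, from 7 to 4, from 1 to 0 and from 2 to 1, with those lower medially in controls from 7 to 0. These fits hold fewer samples. The sterol genes higher dorsally numbered 8 after median-ratio rescaling, 7 after quantile normalization, 2 without the filter and 2 with a sex term, and medially 13 after median-ratio rescaling. Between regions in controls, those higher numbered 0 after median-ratio rescaling and 2 after quantile normalization. The cause of these shifts was not tested.

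With the embryo as a replicate block, the count for the difference of the mutant effect went from 1 to 16 (fixed term) and 49 (random block), that between regions in controls to 6614 (random block), and that in mutants to 4949 and 5283. Sterol genes higher medially in controls then numbered 3 and 2, and 2 with the title number as the block. With the title number as the block, a number that does not pair controls with mutants, Fdps dorsally and Tm7sf2 medially did not pass (limma adjusted p = 0.0606 and 0.0708). The difference count was 0 with male embryos alone, without the filter, and in limma without trend and robust settings.

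Leaving out 1 library gave 3865 to 5178 called genes dorsally (sterol genes 2 to 5 higher, 3 to 7 lower), 4577 to 5496 medially (6 to 10, 5 to 7), 0 to 3 for the difference (0 sterol genes), 3374 to 4552 between regions in controls (0 to 2, 4 to 7) and 1138 to 3678 in mutants (1 to 2, 2 to 4). The dorsal counts of 2 higher and 3 lower genes came without mutant dorsal library 3. No called sterol gene changed direction under any alternative run. Sequencing depth is unknown, so counting error could not be weighed, and the sex of the embryos is unbalanced between genotypes.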
